A study of Mus musculus with 2 samples.

Results

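On the mouse array used here, 300 probes outside the controls were each printed at 10 spots, and the other 56305 of the 56605 probes were printed at 1 spot. The 300 probes were chosen by that layout alone, with no measured value used. They gave 3000 of the 59305 spots outside the controls on each array, and every probe was 60 bases long. Total RNA from mouse blood was hybridised to 2 Agilent 1-colour arrays, a heat array and a control array. According to the labels, the RNA on the heat array came from a sample that had a pretreatment of 1 h at 37 °C in a water bath and then stayed at 38.5 °C for 1 h, and the comparison asked which genes this affected. No temperature or time was given for the control, no strain, age or sex for either group, and it was not said whether animals or drawn blood were heated. Both samples had red cells lysed apart from white cells and globin transcripts removed before labelling. The labels' protocols mention 3 replicates per line, while each group is 1 array in these files. The 10 spots of a probe therefore measure the error of a spot within an array, not the spread between samples, and no difference below has a p-value.

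Ribosomal proteins, whose genes make up a large share of the replicated probes, form the small (Rps) and large (Rpl) subunits of the ribosome together with ribosomal RNA. Their messenger RNAs are among the most abundant in most cells, and reverse-transcribed copies of them, called processed pseudogenes, are scattered over many chromosomes of the mouse genome. A probe for such a gene can also bind transcripts of near-identical copies, so the values of ribosomal genes and of their copies are uncertain as to which locus they come from. Copies of a probe at spread-out positions on an array let the scanner software estimate and remove gradients over the slide.

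The following sequences are those of replicated probes for ribosomal protein genes whose spots did not overlap between the arrays, namely Rps3a1, Rps18 and Rps15a. Those of an X chromosome probe and of a probe that the array's annotation describes as a lincRNA, also without overlap, are added. The latter is called the lincRNA probe by that description alone. All sequences are printed 5′ to 3′ in lower case, as given for the array, with mm9 coordinates from the array's annotation.
Rps3a1 (chr3:85943041-85943100, minus strand): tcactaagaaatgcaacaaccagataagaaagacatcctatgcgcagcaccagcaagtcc
Rps18 (chr17:34089041-34089202, minus strand): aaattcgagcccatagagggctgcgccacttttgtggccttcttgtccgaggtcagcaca
Rps15a (chr7:125253453-125253512, minus strand): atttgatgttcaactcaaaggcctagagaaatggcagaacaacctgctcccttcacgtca
predicted gene 8606 (chrX:151938771-151938830, minus strand): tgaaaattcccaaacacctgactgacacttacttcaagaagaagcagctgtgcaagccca
lincRNA probe (chr17:39985629-39985688, plus strand): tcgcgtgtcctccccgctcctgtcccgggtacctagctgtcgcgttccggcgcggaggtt
The probe of Rps18 spans more genome than its 60 bases, and the lincRNA probe has a GC content of 70%, against a median of 45% over the bright members.

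The next 2 pairs are shown because their probes share sequence although they are placed on different chromosomes or at distant positions of one. In the first pair, capitals mark the longest run that the probes share, which is 39 bases.
predicted gene 9097 (chrX:98995903-98995962, minus strand): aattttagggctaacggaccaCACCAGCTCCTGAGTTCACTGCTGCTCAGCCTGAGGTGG
predicted gene 5764 (chrX:155272044-155272103, plus strand): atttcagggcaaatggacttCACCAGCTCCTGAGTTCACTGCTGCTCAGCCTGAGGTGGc
In the other pair the probes align end to end, and capitals mark the 4 bases that differ.
predicted gene 6096 (chr7:35036453-35036512, plus strand): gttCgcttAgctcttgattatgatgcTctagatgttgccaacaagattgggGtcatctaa
predicted gene 10923 (chr15:84947661-84947717, plus strand): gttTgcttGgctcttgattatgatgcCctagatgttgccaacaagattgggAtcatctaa

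Of the markers checked against the label of blood, all 4 monocyte genes (Lyz2, Csf1r, Adgre1 and Cd14) and 3 of 4 neutrophil genes were well above background on each array. The B cell genes Cd79a and Ms4a1 and the erythroid genes Alas2 and Hbb-b1 were not. Detection was 2 of 4 for T cell genes on each array, 2 and 1 of 3 for NK cell genes, and 1 of 3 for platelet genes on each array.

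By name and description, the 300 probes were dominated by ribosomal proteins and by gene models of unstated function. The files and a table of transcript records described 67 as probes of ribosomal protein genes, 32 as pseudogenes or copies of such genes and 100 as predicted genes. A further 70 carried other gene names, 26 had no description and 5 were described as lincRNA loci. The lincRNA description is the array's own and was not checked. Of the 300, 146 could be given a symbol, 134 through a transcript record and 12 from the name in the files, and these stood for 123 different symbols. Of the 134, 7 were placed on another chromosome than the gene of their record, 4 of them among the 61 for ribosomal protein genes. The X chromosome held 7.0% of the 300 probes and 3.85% of all probes outside the controls.

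Most of the replicated probes were bright. Detection here means that over 0.5 of a probe's kept spots carried the scanner software's flag for a signal well above background. By this measure 284 of the 300 (94.7%) passed on each array, where 53.8% (heat array) and 52.0% (control array) of all probes did. Passing on both arrays were 283, 15 passed on neither and 2 on 1 array only. Levels are given as log2 of the processed signal minus the array's 75th percentile, so 0 stands for a signal of 604 (heat array) and 620 (control array). With a limit of 4 set after the values were seen, 264 probes were bright, with the lowest at 4.47 and the highest of the other probes at 3.93. Of the probes at 1 spot, 5.58% (heat array) and 5.64% (control array) lay above that limit. The bright probes had a median signal of 93795 on the heat array, with a range from 13872 to 229314. On the control array their median was 95860 and the range 13771 to 235121, and no member spot was saturated on either array. All 67 probes of ribosomal protein genes and all 32 of their copies were bright, as were 99 of the 100 predicted genes. Signals of different probes do not rank the amounts of their RNAs.

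The spread among the spots of a probe was larger on the heat array than on the control array. The scanner software marked 158 of the 3000 spots on the heat array (5.27%) and 149 of those on the control array (4.97%) as outliers, which were left out. These fell on 121 and 115 of the 300 probes, and at least 6 spots were kept for every probe. Over the 283 probes above background on both arrays, the median SD among kept spots was 0.051 log2 units on the heat array, with quartiles of 0.034 and 0.073. On the control array it was 0.024, with quartiles of 0.019 and 0.036. The heat array had the larger SD for 233 of the 283 probes. The authors' deposited headers gave a median coefficient of variation of 4.44% (heat array) and 1.87% (control array). Over the 283 probes and their kept spots, the coefficient computed here was 3.51% and 1.63%. The spread also depended on the level. Among the 300 probes on the control array the median SD was 0.363 for the 15 probes at levels between -10 and -5, 0.055 for the 7 between -2 and 2, and 0.022 for the 178 above 7.

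The processed signal had already been divided by a smooth surface that the scanner software fitted over the slide, and the spots it fitted were those of the replicated probes and of controls. On the heat array 2380 member spots and 216 control spots were used, on the control array 2487 and 224, and on neither array a spot of a probe printed once. The spread in the processed signal was thus measured on the spots to which the surface had been fitted. Before that step the median SD of the bright probes was 0.075 (heat array) and 0.050 (control array), against 0.048 and 0.023 after it. The surface ranged from 0.764 to 1.07 at member spots of the heat array and from 0.822 to 1.04 on the control array.

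Before the surface was removed, member spots near the edges of the slide were dimmer than other spots of the same probe. With the array divided into 8 by 4 blocks, the mean deviation of a bright member's spots from their probe's median was -0.066 in edge blocks and 0.021 in inner blocks of the heat array. On the control array it was -0.041 and 0.022. Differences between blocks held 26.1% (heat array) and 40.1% (control array) of the variance of these deviations, and 2.66% and 3.52% after the surface. The block means spanned 0.294 log2 units before and 0.078 after on the heat array, and 0.188 before and 0.033 after on the control array. Across the 2640 bright member positions, which share probes and slide positions, deviations at the same position of both arrays had a Pearson's r of 0.336 before and 0.011 after the step. Outlier spots still lay mostly at the edges. Of 140 outlier spots of bright members on the heat array, 89.3% were in edge blocks and 119 were below their probe's median. On the control array the figures were 92.5% and 104 of 134, while edge blocks held 62.2% of all bright member spots. The first row of blocks held 46 (heat array) and 11 (control array) of the outliers, and the last row held 16 and 56.

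Between the arrays the replicated probes were closely alike, and none was as much as 2-fold apart. A difference is the mean log2 level on the heat array minus that on the control array, with a standard error (SE) from the kept spots. Over the 283 probes the differences ran from -0.48 to 0.25 with a median of 0.018, 189 were above 0 and 94 below, and 264 lay within 0.1 of 0. None reached 1 (2-fold), where 0.689% of the 28755 probes above background on both arrays did, 0.247% higher and 0.442% lower. None reached 0.5 (1.41-fold), where the share over all probes was 4.41%, with 2.05% higher and 2.36% lower. The median SE was 0.019. The sign of the median rested on the scaling, since it was -0.021 with no scaling and -0.002 when each array was scaled to the median of the members themselves. The SD of the differences was 0.049 over the 264 bright probes, where means of at least 6 kept spots are compared. It was 0.136 over the 3076 probes at 1 spot that were as bright on both arrays, where single spots are compared. Their median absolute differences were 0.033 and 0.063, and 1.04% of the latter reached 0.5. Over all 28472 probes at 1 spot above background the SD was 0.244, and over the 19 dimmer replicated probes it was 0.193.

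For 19 of the 283 probes (6.71%) the spots of the arrays did not overlap, which means that the lowest kept spot on one array lay above the highest on the other. Of these, 14 were higher in the heated sample (4.95%) and 5 lower (1.77%). That split rested on the scaling: it was 2 higher and 15 lower with no scaling, and 6 higher and 7 lower when scaled to the median of the members. Cyclic loess gave 16 and 5, quantile normalization 11 and 5, and normexp background correction 9 and 2. With outlier spots kept, 6 were higher and 3 lower. The sizes were small, with a median of 0.11 and a smallest value of 0.044. By looser rules, 18% of the 283 had the same sign at every matched position, which spots without overlap have by definition, and 27.9% lay more than 3 SE from 0. The SE holds spot error only.

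Tspan7, which encodes a tetraspanin membrane protein known from nerve cells, had the lowest difference of the 283 probes. Its 9 kept spots on the heat array had a lowest, median and highest level of -2.23, -2.10 and -1.89. The 8 on the control array had -1.67, -1.58 and -1.56, so every control spot lay above every heat spot. The mean signals were 143 (heat array) and 205 (control array), and the difference was -0.48 with an SE of 0.038. With normexp background correction and the 75th percentile it was -0.32, and under cyclic loess -0.52. With outlier spots kept its spots overlapped.

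Tuba1c, which encodes an alpha tubulin of microtubules, was the lowest named bright probe. Its 10 spots had levels of 7.66, 7.80 and 7.87 (lowest, median, highest) on the heat array and 7.94, 7.97 and 8.02 on the control array. The difference was -0.18 with an SE of 0.023. Ran, the small GTPase of transport through nuclear pores, differed by -0.088 with an SE of 0.024, with heat spots from 7.13 to 7.37 and control spots from 7.38 to 7.46. Its highest heat spot and lowest control spot were thus almost touching. With normexp correction, the spots of Tuba1c and of Ran overlapped.

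Among the 14 probes that were higher in the heated sample without overlap, Cavin1 and Rab3a had the largest differences and were dimmer than the bright set. Cavin1, a coat protein of caveolae, had 9 spots from -0.29 to -0.20 on the heat array (median -0.24) and 9 from -0.48 to -0.31 on the control array (median -0.43). The difference was 0.19 with an SE of 0.021, and the groups were apart at every spot. Rab3a, a small GTPase of synaptic vesicles, had spots from 0.29 to 0.46 and from 0.19 to 0.27, and a difference of 0.13 with an SE of 0.018. The spots of Cavin1 overlapped under quantile normalization and with no scaling, and those of Rab3a under both normexp settings, with no scaling and when scaled to the members.

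The bright probes with higher heat spots were of ribosomal protein genes, a copy of one, gene models and a sequence without description. Another was of a locus on chromosome 17 that the array's annotation describes as a lincRNA. The lincRNA probe on chromosome 17 had 8 heat spots between 5.80 and 5.82 and 9 control spots between 5.62 and 5.71, a difference of 0.12 with an SE of 0.0096. Its 8 heat spots had an SD of 0.0089, the smallest of any of the 283 probes on that array. The probe of predicted gene 8606 on the X chromosome differed by 0.11 with an SE of 0.0096, from heat spots of 6.53 to 6.59 and control spots of 6.40 to 6.48. Rps3a1, of the small subunit, had heat spots from 6.58 to 6.66 and control spots from 6.49 to 6.55, a difference of 0.11 with an SE of 0.011. Rps18 differed by 0.11 with an SE of 0.024 at 1 of its probes and by 0.023 with an SE of 0.023 at the other, where the spots overlapped. Rps15a likewise differed by 0.094 at 1 probe, without overlap, and by 0.038 at the other, with overlap. These proteins all belong to the small subunit. The others of the 14 were predicted genes 9097, 5764, 11849 and 7312, the gene model Gm6983 at 0.10, pseudogene 5 of ribosomal protein S19 at 0.092, and a probe without description at 0.044.

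Some of the larger differences were not separated at the level of spots. Kif5a, a kinesin motor of nerve cells, had the highest difference of the 283 at 0.25 with an SE of 0.055. Its control spots ran from -1.72 to -1.12 and so reached over most of the range of its heat spots (-1.33 to -1.08). Camk2b, a subunit of a calcium-dependent kinase, differed by 0.18 with an SE of 0.061. Aebp1, a protein linked to the extracellular matrix, differed by -0.41 with an SE of 0.12, but by -0.15 under normexp with quantile normalization and by -0.083 under normexp with the 75th percentile. Cck, the hormone and neuropeptide cholecystokinin, differed by -0.32 with an SE of 0.060. The heat spots of Cck reached -2.21 and its control spots began at -2.28. Under normexp with quantile normalization, Kif5a differed by 0.16, Camk2b by 0.079 and Cck by -0.20, and under normexp with the 75th percentile Cck differed by -0.15. In all, 6 probes were lower by over 0.1 and 2 higher by over 0.1 with overlapping spots.

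The lowest difference among the bright probes, -0.20 with an SE of 0.12, came from a lincRNA probe at chr2:167106861-167106920 that was picked out after its values were seen. Its heat spots ran from 5.71 to 6.86 with an SD of 0.39, the largest of the 283, while its median heat spot of 6.76 lay above its median control spot of 6.72. Its mean and its median spot therefore differed in direction. Anxa1, annexin A1 of inflammatory cells, differed by -0.15 with an SE of 0.046 and the same sign at every position, and its spots overlapped. Other probes of Anxa1, printed once, gave 0.056, -0.096 and 0.012.

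Ribosomal protein genes as a group lay at the middle of the replicated probes. Of the 66 probes for 49 genes of the cytosolic ribosome, 46 were above 0 and 20 below, with a median of 0.020, a lowest value of -0.096 (Rpl27, of the large subunit) and a highest of 0.11 (Rps3a1). The median over all 283 probes was 0.018, and over all 181 probes of these genes on the array, at 1 or 10 spots, it was 0.009. With no scaling the split was 18 above and 48 below, and the median stayed 0.003 above that of the 283. Among the higher probes, those of Rps3a1, Rps18 and Rps15a had spots that did not overlap. The 32 probes described as copies of such genes had a median of 0.016, with 22 above 0 and 10 below. Rpl37a, Rps19, Gm8580 and Rplp1 were among the brightest named probes. Rpl37a, of the large subunit, had levels of 8.46 and 8.48 and a difference of -0.017. Rplp1, an acidic protein of the ribosomal stalk, had levels of 8.22 and 8.18 and a difference of 0.036.

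A group of 10 partners of the ribosome in translation was formed after the names of the probes had been seen, so its values are a description. Of its 10 probes, 8 were below the median of the 283 and 2 above, and none was without overlap. The median was -0.027 and the values ran from -0.060 to 0.034. The lowest was Eef1d, an elongation factor subunit, at -0.060 with an SE of 0.013 and the same sign at every position. Eef1a1, which brings transfer RNA to the ribosome, differed by -0.044 and Eef1g by -0.040. Rack1, a scaffold protein on the small subunit, differed by -0.038 with an SE of 0.0097. Another probe of Rack1, printed once, gave 0.13, and that of Eef1d gave -0.17. Eef2, the factor that moves the ribosome along the message, differed by -0.004, and Eif3h, an initiation factor subunit, by 0.034. For the 6 of these in the list of translation factors, the median was -0.022, beside -0.040 over all 122 probes of that list. Relative to the median of the 283, the median of the 10 lay between -0.045 and -0.033 under each scaling.

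Other bright probes were of genes at high levels in macrophages and of the cytoskeleton. The 6 probes of the macrophage and lysosome group had differences from -0.045 to 0.049, and none was without overlap. The highest was the probe named for Mgl2. It shares 43 bases with a probe named for H2-Q6, so which transcript it measured is uncertain. Lgals3 (galectin 3) differed by -0.009, Cd63 (a lysosomal tetraspanin) by -0.003 and Ctsl (the protease cathepsin L) by 0.008. The probes of Mif, a cytokine that macrophages release, differed by -0.045 and 0.049. This was the widest gap between replicated probes of one symbol that were above background on both arrays. Of the 4 probes of the cytoskeleton and nuclear envelope, Tuba1c has been described above. Lmna (lamin A) differed by -0.050, Flna (filamin A) by -0.002 and Myl12a (a myosin light chain) by 0.017.

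The dim members were largely genes of nerve cells, matrix and globin. Of 16 probes of the nervous system group, 8 were above background on both arrays, none was bright, and 4 of the 8 were above 0 and 4 below. Fbxl16, an F-box protein of brain, was above background on the control array only, with signals of 24.6 (heat) and 36.3 (control), and Rtn1 (reticulon 1) on the heat array only, with 28.3 and 34.0. For Rtn1 the flag and the signal thus went in opposite directions. Col1a1, the main collagen of connective tissue, was not above background on either array at its 2 probes, with signals of 7.27 and 9.98 (heat) and of 16.3 and 18.2 (control). Of the alpha globin probes, 1 of Hba-a1 and 1 of Hba-a2 were above background on both arrays and 1 of Hba-a1 on neither. Their differences were 0.028 and -0.002 with SEs of 0.13 in each case, so the spots of these globin probes could not separate differences of that size from 0. Aldoc, the aldolase of brain, differed by 0.063 and -0.029 at its 2 probes.

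Probes that share sequence gave differences close to each other. A run of at least 25 identical bases was shared by 49 pairs among 69 probes, in 29 groups of up to 5 probes, and the longest run was 59 bases. The gap between the differences of a pair had a median of 0.026 and a largest value of 0.083. Among the 47 pairs in which both probes were bright the median gap was also 0.026, beside 0.040 over all 34716 pairs of bright probes. The pair of predicted genes 9097 and 5764 differed by 0.11 and 0.084, both without overlap. The pair of predicted genes 6096 and 10923, with 4 bases that differ, has no shared run of 25 bases and is not among the 49. Its probes gave 0.059 and 0.033. The probes named for Mgl2, a lectin of macrophages, and for the histocompatibility gene H2-Q6 shared 43 bases and gave 0.049 and 0.075. The longest run, of 59 bases, joined the probes of Hba-a1 and Hba-a2 that were above background. Such pairs share their sequence and are not independent measurements.

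Other probes of the same genes, printed once, had the same sign in 59 of 104 pairs. In 70 members of 61 genes, these pairs joined a member with another probe of its symbol, both above background on both arrays. The median gap was 0.075, and 4 pairs were over 0.5 apart. Of the 19 probes without overlap, 6 had such other probes, in 10 pairs, of which 4 had the same sign. For Tuba1c the other probes gave -0.16 and 0.011. For Rps3a1 the others gave 0.035, 0.065 and -0.39. For Rab3a, Rps18 and Rps15a each other probe printed once had the opposite sign, namely -0.21, -0.19, and -0.004 and -0.30. Among 18 symbols with several members above background, the range between members had a median of 0.044 and a largest value of 0.094 (Mif).

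Single spots matched by position give the differences of these probes at 1 spot each. Population outliers are found through replicate spots, so the values are given without and with outlier spots. Of 2576 matched pairs of kept spots, 15 (0.582%) were apart by over 0.5, from 6 probes, and 14 of the 15 were lower in the heated sample. None was apart by over 1. With outlier spots kept there were 30 of 2830 (1.06%) past 0.5 and 2 past 1. For the bright probes the share past 0.5 was 0.167% among kept spots and 0.644% (17 of 2640) with outlier spots kept, where 1.04% of the probes at 1 spot that were as bright reached 0.5. For the 19 dimmer probes it was 6.11% and 6.84%. The 11 kept spots behind the first share came from 4 probes, and 10 of them were lower in the heated sample. That share thus rests on few probes. None of the 283 means over kept spots reached 0.5, although those of Tspan7 (-0.48) and Aebp1 (-0.41) came near it.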

How the data were processed

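The authors' deposited scanner files hold green-channel intensity values: per the file headers, a processed signal, a mean signal, a local background and a background-subtracted signal from Agilent Feature Extraction 10.7.1.1 (protocol GE1_107_Sep09), while the submitters' processing notes name version 9.1. The deposited signal of the multiplicative surface and the other deposited flags (outlier, saturation, well above background) come from the same files, per the file headers. The value table that the authors deposited is on the log2 scale. Set against the arrays, it matched log2 quantile-normalized processed signals over the 300 members with r above 0.99 on each array and a median of 5.26 in each column, in the direction of the scanner files.

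Spots flagged as non-uniform or population outliers were dropped. Log2 processed signals were averaged over the kept spots of a probe, and each array's 75th percentile was subtracted. Each group held 1 array, so no test was run. Spot SDs and SEs cover error within an array, and the number of arrays limits the precision. The members and lists were chosen with earlier results of these data known, and the groups of translation partners, macrophage, cytoskeleton, nervous system, matrix and globin genes after the names had been seen. The named genes were the 12 highest and 12 lowest probes with a symbol and without overlap, the 5 brightest and 5 dimmest, the 5 with the largest and the 5 with the smallest matched SD, up to 4 per list, up to 5 above background on 1 array only, and any at 2-fold. Others were picked after their values were seen. Symbols came from a RefSeq table of GRCm38.p6, with no coordinates taken from it, and probe coordinates are mm9. Exon and UTR annotation was not used here, and the values and sequences of some probes are not reported here. The alternatives were normexp (offset 50), quantile normalization, cyclic loess, no scaling, the members' median, outlier spots or dim members kept, and the authors' values. The calling rule was run on simulated spots of the same SD on both arrays. Correct calls were required there only for planted differences of 0.5 or more. No call in these data was that large, so that requirement did not cover them. Python 3.11.15, numpy 2.4.6, pandas 2.3.3, R 4.3.3, limma 3.58.1 and data.table (version 1.17.8) were used. No column of other samples was present.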

Additional observations from a re-analysis of the deposited data

How the results depend on the processing

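No paired analysis was possible because each group held 1 array. The count of 19 probes without overlap was 11 under normexp with quantile normalization, 11 under normexp with the 75th percentile and 9 with outlier spots kept. It was 51 (18% of the 283) by the same sign at every position, 79 (27.9%) by a distance of over 3 SE, and 0 when a size of 0.5 was also required. Under quantile normalization, no scaling, the members' median and cyclic loess it was 16, 17, 13 and 21. Of the 19, 8, 9, 14, 7, 11, 19 and 9 kept their call and direction under normexp with quantile normalization, normexp with the 75th percentile, quantile normalization, no scaling, the members' median, cyclic loess and outlier spots kept. None of the 19 kept it under all 7, and Tspan7, Rps15a and the chromosome 17 lincRNA probe were among those that kept it under 6. The cause of these losses was not tested.

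With dim members kept, 1 probe was 2-fold apart (Col1a1, -1.13, not above background) and 3 were 0.5 apart. Tspan7 made 1 probe at 0.5 or more under quantile normalization (-0.51), no scaling (-0.52), cyclic loess (-0.52) and the authors' values (-0.52). The median spot SD rose from 0.051 to 0.078 on the heat array and from 0.024 to 0.050 on the control array under normexp, and to 0.079 and 0.050 on signals before the surface, which was added after seeing the data. The SD of position-matched differences was 0.055. Of 288 values of named probes under these alternatives, 262 moved by less than their matched SD, 26 moved by more, and 0 probes without overlap changed sign.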
